A study of Mus musculus with 8 samples.

Results

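Type I interferons are antiviral cytokines. They bind a receptor made of IFNAR1 and IFNAR2, whose kinases JAK1 and TYK2 activate the transcription factor complex ISGF3, of which IRF9 and STAT2 are parts. ISGF3 binds the interferon-stimulated response element (ISRE) in promoters and switches on antiviral genes. T cells in lymphoid tissue carry a low, continuous level of many of these transcripts, and type I interferon is known to restrain Th17 differentiation in mice. The genes described here are 40 such transcripts, from a list of symbols known for interferon induction, looked up by symbol in the deposited count table. The list was chosen with earlier results of these data known. All 40 genes were found among the 23366 in the table.

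The libraries came from CD4+ T cells of C57BL/6 mice, in 4 groups of 2. All cultures received antibodies to CD3e and CD28 together with TGFb and IL-6 over 3 days, conditions that yield Th17 cells, and were given PAM3CSK4 (replicates 3 and 4), biglycan (7 and 8) or no further ligand (1 and 2). PAM3CSK4, a synthetic lipopeptide that activates TLR2 with TLR1, was given at 2 ug/ml; for biglycan, a matrix proteoglycan known as a ligand of TLR2 and TLR4, the dose cannot be read with certainty from the series text. The naive cells (1 and 2) were isolated from spleen and lymph node and left untreated, so no culture of resting or merely activated cells serves as their match. Neither the age nor the sex of the mice is given in the sources used here, and no source tells whether paired libraries had their own mice or dishes. The p-values thus measure only library-to-library spread, possibly technical.

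Gene counts per library ran from 7012244 to 12533045, and levels are given as CPM, counts scaled to the library's total after TMM adjustment. At this depth 3 counts in a single library equal 0.235 to 0.448 CPM. Summed T cell markers stood at 5192 to 5663 CPM in all groups, but single markers differed: Cd4 had 604 and 642 CPM in Th17 cultures, against 1225 and 1124 CPM in naive cells, and Cd28 had 2734 and 2504 CPM in Th17 cultures, against 1163 and 1009 CPM in naive cells. Cd3e and Cd3g were lower in Th17 cultures too. Il17a, the defining Th17 cytokine, had 126 and 179 CPM with PAM3CSK4, 89.7 and 94.2 CPM with biglycan and 95.8 and 77.1 CPM in Th17 cultures, and was at 0 in both naive libraries, as were Il23r and Ccr6. Mitochondrial RNA took 14.3 and 14.7% of reads with PAM3CSK4, 15.9 and 16.1% with biglycan and 15.7 and 16.0% in Th17 cultures, against 12.0 and 9.87% in naive cells.

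Th17 cultures held far less of this programme than naive cells. Summed over the 40 genes, the level was 1745 and 1775 CPM in Th17 cultures, against 4242 and 4038 CPM in naive cells. It was 1766 and 1687 CPM with PAM3CSK4 and 1746 and 1829 CPM with biglycan, so the 6 cultured libraries lay close together and below both naive libraries. Of the 39 genes tested, 38 were lower in Th17 cultures and 1, Samhd1, was higher, at a Benjamini-Hochberg adjusted p under 0.05 in edgeR's quasi-likelihood test. Among all 11629 tested genes, 34.4% were called lower and 37.8% higher. A fall of at least 8-fold was called for 18 of the 39, beside 2.12% of all tested genes. The median log2 change over the 39 was -2.54, beside 0.03 over all tested genes. The weakest of the 38 lower calls was Mx1, with an adjusted p of 0.00136. For all 38 both Th17 libraries lay below both naive libraries. This describes the same values as the calls, and the share of all tested genes lying apart in this way was not counted.

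These counts need 1 reservation. At the level of the low-count filter (1.02 CPM), 11 of the 39 passed in both naive libraries but not in both Th17 libraries. They were Ifit3, Isg15, Isg20, Mx1, Mx2, Oas2, Oasl1, Rsad2, Rtp4, Ifi44 and Ifi203. Mx1 also passed in Th17 replicate 1, PAM3CSK4 replicate 3 and biglycan replicate 7 (1.35, 1.18 and 1.26 CPM). All but Mx1 were kept only through their naive libraries, and a gene kept that way had to be lower in culture. The 11 genes hold 10 of the 18 with a fall of at least 8-fold. The other 8 are among the remaining 28 genes. The counts and the median over the 39 are therefore descriptions only. The adjusted p given below for each of these 11 genes except Mx1 carries the same limit. Levels are shares of each library's counts, and in bulk RNA fewer cells with a transcript and less RNA per cell cannot be told apart. Activation, the polarizing cytokines, time in culture and handling cannot be told apart in this comparison either.

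**Figure D1:**
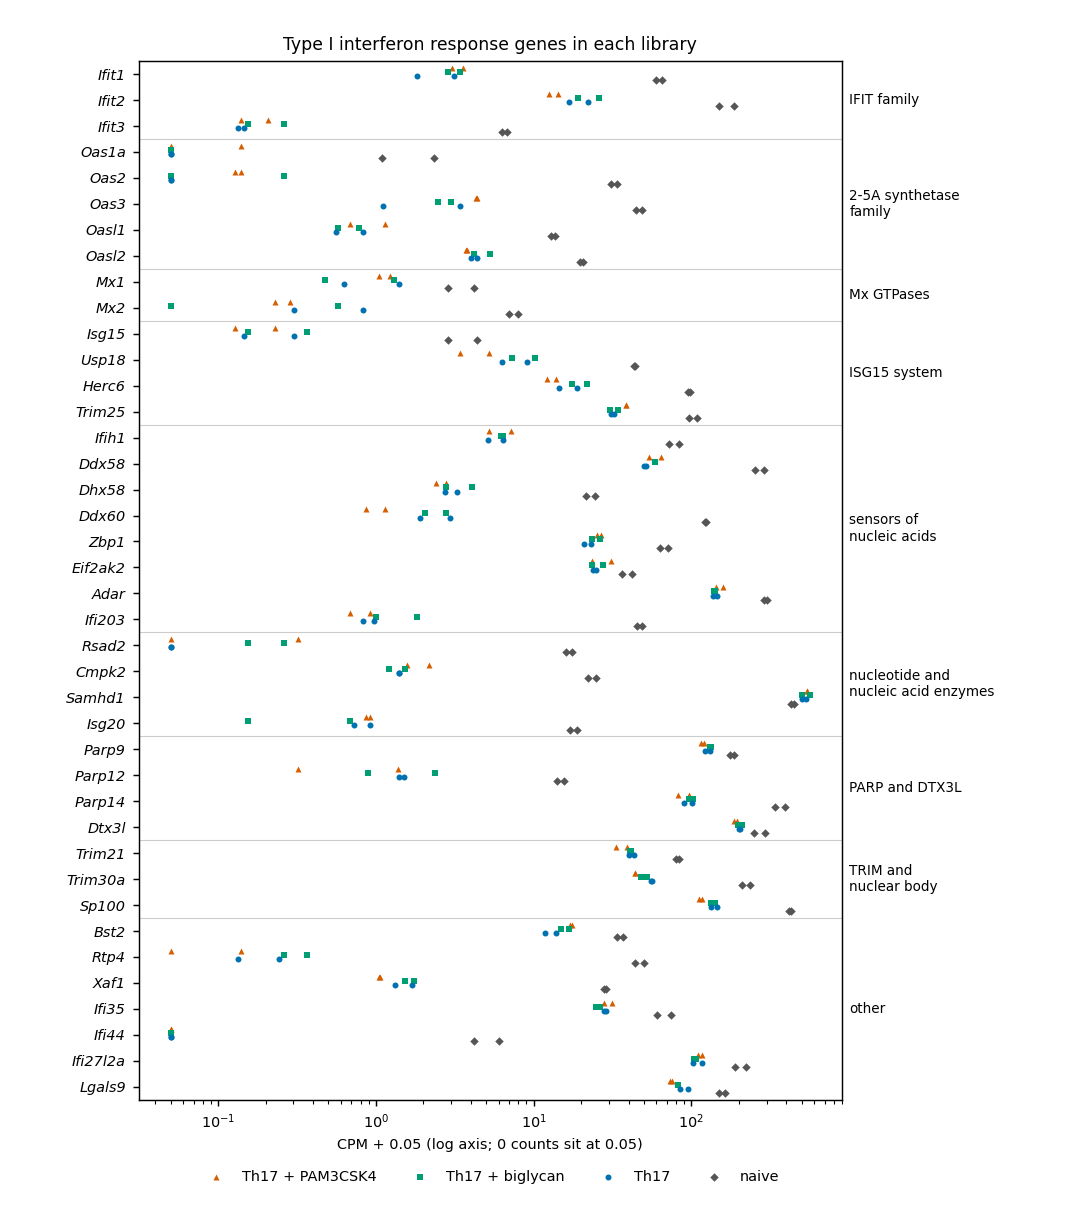
Level of each of the 40 genes in each of the 8 libraries, on a log axis of CPM + 0.05, grouped by role; each point is 1 library. For 39 of the 40 genes both Th17 libraries lie to the left of both naive libraries, and Samhd1 is the exception. The like share over all tested genes was not counted.

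Promoters are shown because most of the genes fell together and the ISRE is the element through which ISGF3 is known to act; not all of them carry it. RefSeq promoter windows (GRCm38.p6, 250 bases before to 50 after the annotated start) were found for 30 of the 40 genes. The ISRE core searched was GAAANNGAAA on either strand; 15 of the 30 genes (50%) had it in a window, against 3.44% of all 32851 windows and 3.99% of 27025 genes. Followed by C, the longer form was in 11 of the 30, against 0.944% of genes. The GAS core TTCNNNGAA, an element known from interferon gamma responses that reads the same on both strands, was in 8 of the 30 (26.7%), against 9.55% of genes. Capitals below mark the ISRE core, in either orientation, in the 6 genes with the core that had the smallest adjusted p and a single window; Samhd1, without the core, was added after its values were seen because it alone was higher in Th17 cultures. The windows are Ddx60 chr8:61927837-61928136 (plus strand), Ddx58 chr4:40239776-40240075 (minus strand), Ifit1 chr19:34640639-34640938 (plus strand), Ifih1 chr2:62646206-62646505 (minus strand), Oas3 chr5:120777610-120777909 (minus strand), Rsad2 chr12:26456403-26456702 (minus strand) and Samhd1 chr2:157135047-157135346 (minus strand), each printed 5′ to 3′ in the direction of transcription.
Ddx60: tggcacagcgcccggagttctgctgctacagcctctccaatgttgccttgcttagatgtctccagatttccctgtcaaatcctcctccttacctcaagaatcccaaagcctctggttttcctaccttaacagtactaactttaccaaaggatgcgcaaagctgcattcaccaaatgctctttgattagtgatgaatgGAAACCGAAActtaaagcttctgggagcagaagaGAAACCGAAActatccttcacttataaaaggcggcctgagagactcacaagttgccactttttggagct
Ddx58: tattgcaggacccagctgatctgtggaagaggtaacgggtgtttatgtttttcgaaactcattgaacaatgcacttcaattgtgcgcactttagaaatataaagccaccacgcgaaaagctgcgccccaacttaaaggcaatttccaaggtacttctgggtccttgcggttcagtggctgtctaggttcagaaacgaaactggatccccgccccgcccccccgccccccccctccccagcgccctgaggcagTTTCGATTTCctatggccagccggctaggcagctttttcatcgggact
Ifit1: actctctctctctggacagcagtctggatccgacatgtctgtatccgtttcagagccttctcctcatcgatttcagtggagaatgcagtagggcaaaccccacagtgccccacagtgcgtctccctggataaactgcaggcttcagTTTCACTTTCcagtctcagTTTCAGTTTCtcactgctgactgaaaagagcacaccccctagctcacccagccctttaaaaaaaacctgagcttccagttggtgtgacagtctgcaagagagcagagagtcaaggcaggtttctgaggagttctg
Ifih1: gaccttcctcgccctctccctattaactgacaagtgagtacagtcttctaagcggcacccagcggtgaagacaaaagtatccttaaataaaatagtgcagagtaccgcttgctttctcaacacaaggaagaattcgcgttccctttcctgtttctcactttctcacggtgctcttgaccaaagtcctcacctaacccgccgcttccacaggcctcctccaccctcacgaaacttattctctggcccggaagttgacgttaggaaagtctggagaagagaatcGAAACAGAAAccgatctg
Oas3: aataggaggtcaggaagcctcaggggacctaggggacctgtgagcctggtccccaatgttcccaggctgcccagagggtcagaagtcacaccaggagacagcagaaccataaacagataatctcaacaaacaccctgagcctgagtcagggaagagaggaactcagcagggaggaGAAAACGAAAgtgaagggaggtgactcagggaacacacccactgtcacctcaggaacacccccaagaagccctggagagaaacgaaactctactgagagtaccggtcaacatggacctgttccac
Rsad2: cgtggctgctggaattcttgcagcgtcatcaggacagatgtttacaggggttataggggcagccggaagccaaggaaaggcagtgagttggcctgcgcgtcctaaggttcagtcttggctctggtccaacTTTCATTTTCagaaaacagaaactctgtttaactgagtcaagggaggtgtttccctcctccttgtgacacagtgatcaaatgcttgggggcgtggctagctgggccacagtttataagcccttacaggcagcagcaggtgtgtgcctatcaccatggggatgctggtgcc
Samhd1: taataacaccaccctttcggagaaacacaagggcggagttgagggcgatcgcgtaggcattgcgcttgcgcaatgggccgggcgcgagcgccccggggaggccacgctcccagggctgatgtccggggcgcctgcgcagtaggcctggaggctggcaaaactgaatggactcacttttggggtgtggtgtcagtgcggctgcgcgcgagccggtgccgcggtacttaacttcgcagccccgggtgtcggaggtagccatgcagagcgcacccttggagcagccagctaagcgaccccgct

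Counted from 1 at the annotated start, the first core began at -53 in Ddx60, -104 in Ifit1, -75 in Oas3 and -120 in Rsad2, and inside the transcribed part at 3 in Ddx58 and 33 in Ifih1. Ddx60 and Ifit1 each held 2 cores. Genes with the core in a window had a median log2 change of -3.99 in Th17 cultures over the 14 tested, and genes without it -2.54 over 15. Genes that the filter kept only through their naive libraries are in both sets. They are Ifit3, Isg15, Rsad2 and Ifi203 with the core, and Isg20, Oasl1 and Ifi44 without it. The medians are therefore descriptions only. Both sets spanned small and large falls: Eif2ak2 and Lgals9 had the core and fell by 0.69 and 0.80 on the log2 scale, while Isg20 and Xaf1 lacked it in their windows and fell by 4.53 and 4.29. No window was matched for Mx1, Mx2, Oas2, Rtp4, Usp18, Zbp1, Dhx58, Parp9, Parp14 and Ifi27l2a. A match is a run of letters and was not tested as a binding site.

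The IFIT family fell deeply. Its proteins bind viral RNA and block its translation. Ifit1 had 1.77 and 3.09 CPM in Th17 cultures, against 64.9 and 59.2 CPM in naive cells. Its log2 change was -4.69 ± 0.19 (standard error), or 25.8-fold lower (adjusted p = 7.94e-15). The groups stood far apart, and the cores printed above for Ifit1 lie upstream of its start. Ifit2 had 16.7 and 21.9 CPM in Th17 cultures, against 185 and 149 CPM in naive cells (log2 change -3.12 ± 0.14, adjusted p = 3.42e-14). Ifit2 kept the most transcript of the 3 in culture. Ifit3 had 1 count in each Th17 library (0.0844 and 0.0966 CPM), against 6.27 and 6.70 CPM in naive cells, a ratio of 72.1 (95% counting interval 19.4 to 604; adjusted p = 4.74e-09). Ifit3 shares 51.2% of its 50-base words with Ifit3b in the GENCODE annotation of GRCm38, so its counts are uncertain. Its neighbour on the chromosome, Ifit2, shares none.

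The oligoadenylate synthetase family makes the second messenger that activates RNase L. Oas2 had 0 counts in both Th17 libraries, against 30.9 and 33.9 CPM in naive cells, which puts it at least 240-fold lower when the Th17 pair is set to a floor of 3 counts in sum (adjusted p = 1.35e-13). Oas3, its neighbour, had 3.38 and 1.06 CPM in Th17 cultures, against 48.8 and 44.6 CPM in naive cells (log2 change -4.34 ± 0.24, adjusted p = 1.38e-12). Without Th17 replicate 1, the higher of the pair, the log2 change of Oas3 was -5.44. Oas1a, left out of the test by the filter, had 0 counts in both Th17 libraries, against 1.04 and 2.27 CPM in naive cells, a fall of at least 12.7-fold. It shares 57.6% of its 50-base words with Oas1g and is uncertain. The 2 OAS-like genes, which lie side by side, fell unequally. Oasl1, whose mouse protein represses translation of IRF7, had 0.506 and 0.773 CPM in Th17 cultures, against 13.6 and 12.9 CPM in naive cells (log2 change -4.36 ± 0.34, adjusted p = 2.85e-10). Oasl2 averaged 4.13 ± 0.241 CPM in Th17 cultures and 20.2 ± 0.628 CPM in naive cells (SD, n = 2 each), 4.85-fold lower (log2 change -2.28 ± 0.20, adjusted p = 1.68e-09). For all 5 genes the Th17 pair lay below the naive pair.

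The Mx genes encode GTPases that block viral replication; C57BL/6 mice are known to carry a disrupted Mx1. Mx2 had 0.253 and 0.773 CPM in Th17 cultures, against 7.91 and 6.95 CPM in naive cells (log2 change -3.86 ± 0.48, adjusted p = 3.78e-07). Its Th17 libraries had 3 and 8 counts, and the log2 change was -3.24 without Th17 replicate 1 and -4.81 without Th17 replicate 2. Mx1 averaged 0.965 ± 0.545 CPM in Th17 cultures and 3.50 ± 0.943 CPM in naive cells (log2 change -1.83 ± 0.46, adjusted p = 0.00136); without Th17 replicate 1 its change was -2.58. It was the lowest of the tested genes per length in naive cells.

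ISG15 is a ubiquitin-like protein that is attached to other proteins, in mice mainly by HERC6, and removed by USP18, which also shuts down signalling at the receptor. Isg15 had 0.253 and 0.0966 CPM in Th17 cultures, against 2.84 and 4.29 CPM in naive cells (log2 change -4.23 ± 0.61, adjusted p = 2.39e-06). Those Th17 values are 3 counts and 1 count, and without Th17 replicate 1 the change was -5.05. The gene was low even in naive cells. Herc6 averaged 16.6 ± 2.93 CPM in Th17 cultures and 96.0 ± 1.90 CPM in naive cells, and Usp18 averaged 7.62 ± 1.94 CPM in Th17 cultures and 43.6 ± 0.197 CPM in naive cells. Trim25, an E3 ligase that modifies RIG-I, averaged 31.6 ± 0.986 CPM in Th17 cultures and 103 ± 9.22 CPM in naive cells. Their log2 changes were -2.54 ± 0.13 (Herc6, adjusted p = 2.36e-13), -2.53 ± 0.19 (Usp18, adjusted p = 1.39e-10) and -1.70 ± 0.10 (Trim25, adjusted p = 3.15e-12). Herc6 shares 12.5% of its 50-base words with another gene model and is uncertain to that extent. Ligase, protease and modifier were all lower, by 3.26-fold for Trim25 up to 18.8-fold for Isg15.

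Sensors of nucleic acids split into deep and shallow falls. Ddx60, an RNA helicase, had 1.86 and 2.90 CPM in Th17 cultures, against 123 and 123 CPM in naive cells. It was 52.1-fold lower (log2 change -5.70 ± 0.16) and had the smallest adjusted p of the 40, 2.50e-17. Its printed promoter carries 2 cores. Ifi203, of the HIN-200 family, had 0.928 and 0.773 CPM in Th17 cultures, against 48.4 and 45.1 CPM in naive cells (log2 change -5.75 ± 0.24, adjusted p = 9.82e-15); 12.4% of its 50-base words occur in other genes, most in Mndal, and its counts are uncertain. Ifih1 (MDA5), a sensor of long double-stranded RNA, had 6.33 and 5.12 CPM in Th17 cultures, against 83.0 and 71.6 CPM in naive cells (log2 change -3.74 ± 0.16, adjusted p = 1.20e-14). In all 3 the Th17 libraries lay far below the naive ones. Ddx58 (RIG-I), which senses RNA ends, averaged 50.9 ± 0.862 CPM in Th17 cultures and 271 ± 25.6 CPM in naive cells, 5.32-fold lower (log2 change -2.41 ± 0.09, adjusted p = 4.21e-15). Dhx58 (LGP2), which modulates both, averaged 2.96 ± 0.354 CPM in Th17 cultures and 22.9 ± 2.15 CPM in naive cells, 7.69-fold lower and just short of the 8-fold line (log2 change -2.94 ± 0.22, adjusted p = 1.46e-10). Zbp1, a sensor of Z-form nucleic acid, averaged 21.9 ± 1.78 CPM in Th17 cultures and 67.0 ± 4.99 CPM in naive cells (log2 change -1.61 ± 0.11, adjusted p = 5.96e-11). The double-stranded RNA enzymes fell least. Adar, which edits adenosine to inosine, averaged 141 ± 5.31 CPM in Th17 cultures and 295 ± 8.13 CPM in naive cells, 2.10-fold lower (log2 change -1.07 ± 0.08, adjusted p = 1.54e-10); it shares 14.4% of its 50-base words. Eif2ak2 (PKR), which halts translation, averaged 24.2 ± 0.612 CPM in Th17 cultures and 39.1 ± 4.02 CPM in naive cells, 1.61-fold lower (log2 change -0.69 ± 0.14, adjusted p = 0.00016).

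Enzymes of nucleotides and nucleic acids held both near losses and the only rise. Rsad2 (viperin), which makes a chain-terminating nucleotide, had 0 counts in both Th17 libraries, against 17.5 and 15.9 CPM in naive cells, a fall of at least 123-fold (adjusted p = 3.46e-11). Its neighbour Cmpk2, a mitochondrial nucleotide kinase, had 1.35 and 1.35 CPM in Th17 cultures, against 21.9 and 24.8 CPM in naive cells, and was 17.2-fold lower (log2 change -4.10 ± 0.25, adjusted p = 4.94e-12). Isg20, an exonuclease, had 0.675 and 0.870 CPM in Th17 cultures, against 17.0 and 18.8 CPM in naive cells, and was 23.1-fold lower (log2 change -4.53 ± 0.32, adjusted p = 5.96e-11). These 3 nearly vanished from culture. Samhd1, which degrades the DNA building blocks that viruses need, went the other way. It had 533 and 505 CPM in Th17 cultures, against 448 and 425 CPM in naive cells, with no overlap. Its log2 change was 0.25 ± 0.08 (adjusted p = 0.00771), and without Th17 replicate 1 it was 0.21 with an adjusted p of 0.0648. The printed Samhd1 window holds no ISRE core and 1 GAS core.

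ADP-ribosylating genes were mostly shallow. Parp12 had 1.35 and 1.45 CPM in Th17 cultures, against 14.0 and 15.5 CPM in naive cells (log2 change -3.39 ± 0.35, adjusted p = 2.94e-08). Parp14, Dtx3l and Parp9 lie side by side on the chromosome. Parp14 averaged 95.2 ± 7.91 CPM in Th17 cultures and 364 ± 35.8 CPM in naive cells, 3.83-fold lower (log2 change -1.94 ± 0.09, adjusted p = 1.68e-13). Dtx3l, a ubiquitin ligase, and Parp9, its partner, were 1.34-fold and 1.43-fold lower, at 202 ± 2.17 and 127 ± 5.63 CPM in Th17 cultures and 271 ± 30.3 and 181 ± 7.43 CPM in naive cells. Their log2 changes were -0.42 ± 0.08 (Dtx3l, adjusted p = 0.000118) and -0.51 ± 0.08 (Parp9, adjusted p = 5.34e-06). The pair shares 8.09% (Dtx3l) and 7.71% (Parp9) of 50-base words, so both counts are uncertain.

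Among the TRIM and nuclear body genes all 3 fell by under 4-fold. Trim30a, which in mice dampens NF-kB signalling, averaged 55.5 ± 0.604 CPM in Th17 cultures and 221 ± 17.9 CPM in naive cells. Sp100, a nuclear body protein, averaged 139 ± 9.03 CPM in Th17 cultures and 419.7 ± 9.60 CPM in naive cells. Trim21, a cytosolic antibody receptor, averaged 41.6 ± 2.01 CPM in Th17 cultures and 82.0 ± 2.29 CPM in naive cells. They were 3.97-fold (Trim30a), 3.02-fold (Sp100) and 1.97-fold (Trim21) lower. The log2 changes were -1.99 ± 0.09 (Trim30a, adjusted p = 1.75e-14), -1.60 ± 0.08 (Sp100, adjusted p = 2.10e-13) and -0.98 ± 0.10 (Trim21, adjusted p = 1.76e-08).

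The other 7 genes ran from near loss to shallow falls. Rtp4, a receptor transporter, had 0.0844 and 0.193 CPM in Th17 cultures (1 count and 2 counts), against 50.3 and 44.0 CPM in naive cells, a ratio of 347 (95% counting interval 118 to 1686; adjusted p = 3.25e-15). Ifi44 had 0 counts in both Th17 libraries, against 5.97 and 4.17 CPM in naive cells, a fall of at least 37.0-fold (adjusted p = 1.80e-07; 0.117 with DESeq2). Xaf1, a binding partner of the apoptosis inhibitor XIAP, had 1.27 and 1.64 CPM in Th17 cultures, against 28.1 and 28.8 CPM in naive cells, and was 19.5-fold lower (log2 change -4.29 ± 0.23, adjusted p = 5.65e-13). The log2 change of Rtp4 was -8.32 ± 0.33, and -8.92 without Th17 replicate 2. It ranked in the middle of the 40 per length in naive cells. It shares 11.6% of its 50-base words with another gene model and is uncertain to that extent, as is Ifi35 (10.4%). Bst2 (tetherin), which holds budding virus at the cell surface, averaged 12.7 ± 1.41 CPM in Th17 cultures and 35.3 ± 2.23 CPM in naive cells. Ifi35 averaged 28.2 ± 0.418 CPM in Th17 cultures and 67.2 ± 9.32 CPM in naive cells, and Ifi27l2a averaged 109 ± 10.6 CPM in Th17 cultures and 206 ± 23.1 CPM in naive cells. The log2 changes were -1.48 ± 0.14 (Bst2, adjusted p = 5.34e-09), -1.25 ± 0.11 (Ifi35, adjusted p = 4.28e-09) and -0.91 ± 0.09 (Ifi27l2a, adjusted p = 1.37e-08). Lgals9 (galectin-9) averaged 89.8 ± 7.46 CPM in Th17 cultures and 156 ± 10.8 CPM in naive cells, 1.74-fold lower (log2 change -0.80 ± 0.08, adjusted p = 4.04e-08).

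**Figure D2:**
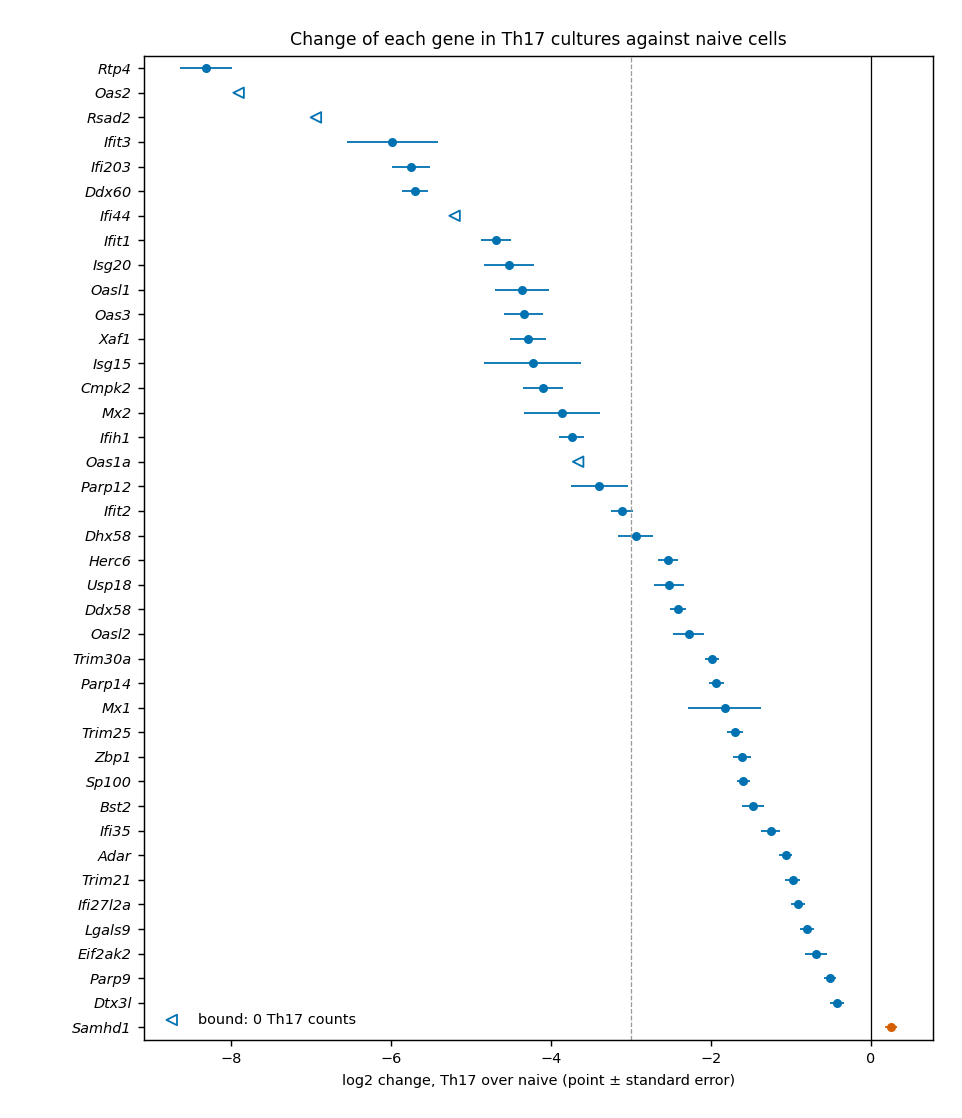
Log2 change of each of the 40 genes in Th17 cultures over naive cells, with standard error; open triangles mark the bound for genes with 0 Th17 counts, and the dashed line marks 8-fold. All points but Samhd1 (0.25) lie left of 0.

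By size, 7 of the 39 tested genes changed by under 2-fold or were higher, 14 fell by 2- to 8-fold, 11 by 8- to 32-fold and 7 by more. The deposited RPKM, which divides by gene length, sets the genes beside each other. In naive cells Ifi27l2a was highest at 257 and 323 RPKM, followed by Sp100 (70.4 and 72.6), Lgals9 (52.1 and 49.9) and Samhd1 (49.5 and 49.9). In Th17 cultures Ifi27l2a (194 and 168 RPKM) still led, with Samhd1 (74.0 and 69.1) next. Across the 39 genes, those higher in naive RPKM tended to have the smaller fall (Spearman's rho 0.62 between naive RPKM and the log2 change). This is a description across genes, and both measures share the naive libraries.

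**Figure D3:**
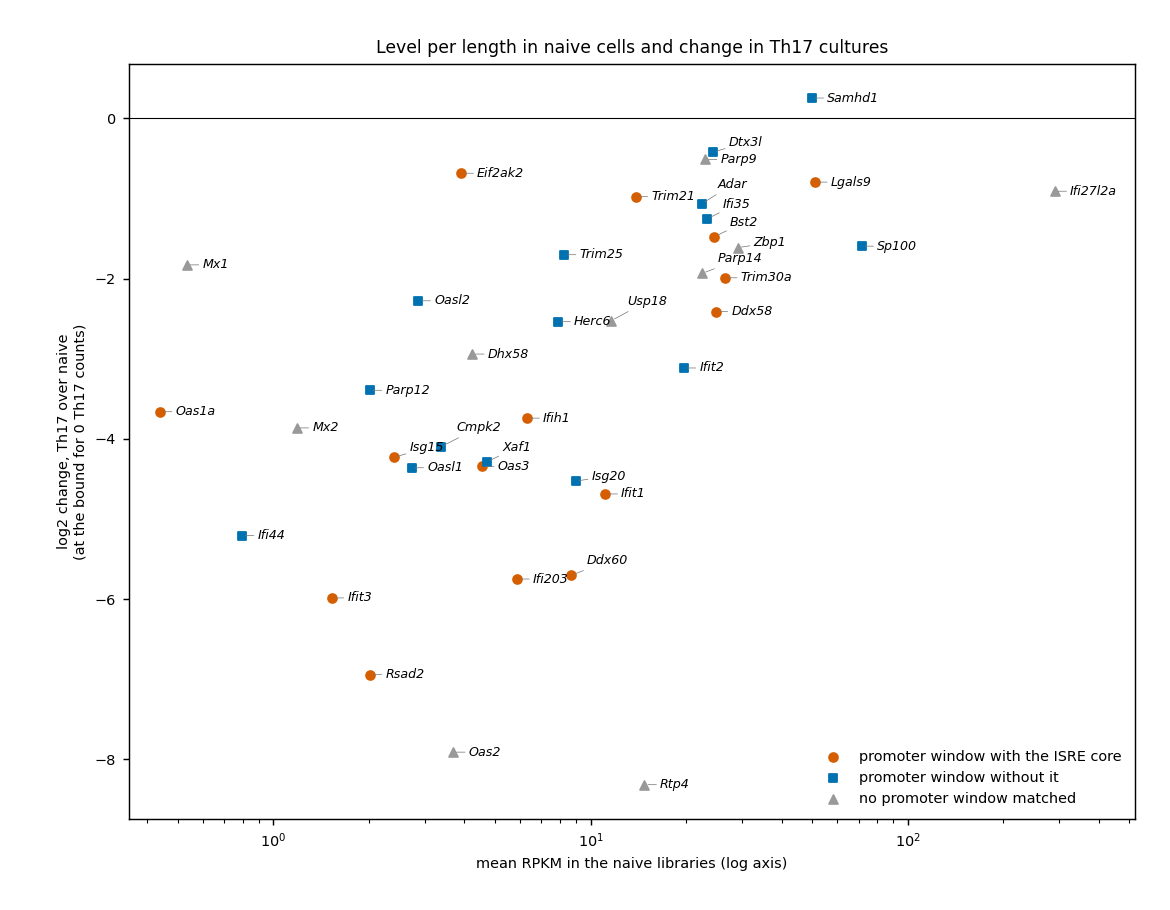
Mean naive RPKM of each of the 40 genes on a log axis, against its log2 change in Th17 cultures over naive cells; symbols mark whether the promoter window held the ISRE core. Genes with and without the core are found among small and large falls, and Rtp4, at 14.8 RPKM, lies far below genes of like level.

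Genes that carry the interferon signal were listed as 10 receptor and ISGF3 genes, among them Jak2 and the interferon gamma receptor chains. Their median log2 change was -0.90. The -2.54 over the 39 is not a like measure, because the filter kept some of those genes only through their naive libraries. Type I interferon transcripts were not detected: 16 such genes in the table, Ifnb1 and Ifna4 among them, had 0 counts throughout, and pooling the 8 libraries puts the limit of detection at 0.0377 CPM. Ifna genes are near copies of each other, and counting only unique reads can lose such genes. Ifng, for type II interferon, had 1 and 6 counts in naive cells and 0 in every culture. Of the 10 receptor and ISGF3 genes, 8 were lower in Th17 cultures and 1 was higher, beside the 34.4% and 37.8% of all tested genes given above. Irf9 had 125 and 124 CPM in Th17 cultures, against 246 and 252 CPM in naive cells (adjusted p = 1.49e-10). Its transcript stayed abundant in culture, and the groups did not overlap. Stat2 had 38.9 and 40.5 CPM in Th17 cultures, against 47.2 and 54.7 CPM in naive cells (log2 change -0.36 ± 0.10; adjusted p = 0.0637 without naive replicate 2). Receptor chains differed: Ifnar1 was lower (-0.50 ± 0.08) and Ifnar2 did not pass the test (83.4 ± 9.39 CPM in Th17 cultures and 83.2 ± 2.89 CPM in naive cells). The exception among the 10 was Jak2, the kinase of the interferon gamma and IL-23 receptors, with 701 and 671 CPM in Th17 cultures, against 331 and 296 CPM in naive cells (log2 change 1.13 ± 0.08). Of 11 tested sensors and adaptors outside the 40, 8 were lower and 3 (Tmem173, Ticam1 and Aim2) higher, beside 34.4% and 37.8% of all tested genes. Among them Irf7, the factor that amplifies interferon production and is itself an interferon target, had 5.99 and 6.57 CPM in Th17 cultures, against 110.3 and 137 CPM in naive cells (log2 change -4.30 ± 0.14).

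Marker lists of other cells moved in both directions. Of the plasmacytoid dendritic cell list, Siglech had 1 count in naive cells and 0 in every culture, and Klk1 had 0 throughout. The summed list stood at 56.0 to 56.1 CPM in Th17 cultures, against 102 to 108 CPM in naive cells, and its genes moved in opposite directions. Tcf4 was higher, at 44.3 and 41.0 CPM in Th17 cultures, against 4.78 and 4.17 CPM in naive cells. Pacsin1 was lower, at 11.4 and 14.7 CPM in Th17 cultures, against 91.5 and 86.3 CPM in naive cells. Ccr9 was lower too, at 0.422 and 0.290 CPM in Th17 cultures, against 11.6 and 11.7 CPM in naive cells. Summed myeloid markers were 6.67 to 7.15 CPM in Th17 cultures, against 12.8 to 15.5 CPM in naive cells, with Tyrobp at 0 in both. Summed B cell markers were 0.483 to 0.675 CPM in Th17 cultures, against 2.40 to 3.28 CPM in naive cells. Summed stromal markers were 160 to 216 CPM in Th17 cultures, against 347 to 366 CPM in naive cells. Nearly all of it was Pecam1, at 159 and 211 CPM in Th17 cultures, against 342 and 365 CPM in naive cells. Col1a1, Col1a2 and Col3a1 averaged 1.09, 1.36 and 0.664 CPM in Th17 cultures and 0.936, 1.57 and 0.425 CPM in naive cells. The summed NK and CD8 T cell list was higher in Th17 cultures, at 46.2 to 50.3 CPM, against 37.1 to 38.4 CPM in naive cells. The rise was mostly that of Klrd1, at 44.0 and 41.8 CPM in Th17 cultures, against 15.8 and 15.9 CPM in naive cells. Cd8b1 went the other way, with 5.40 and 4.25 CPM in Th17 cultures, against 20.9 and 20.0 CPM in naive cells. Cd8a and Gzma were lower in Th17 cultures too, and Ncr1 was at 0 in both. The summed dendritic cell list was also higher in Th17 cultures, at 1.26 to 1.60 CPM, against 0.758 to 0.895 CPM in naive cells, with Xcr1 and Clec9a at 0 in both. The part of these lists, and of the mitochondrial share, in the fall of the interferon genes was not tested.

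With PAM3CSK4 few of the interferon genes passed the threshold, and those that did were lower than in Th17 cultures. The comparison asks what the TLR2 ligand adds to Th17 polarization. Of the 39 tested genes, 0 were called higher (5.21% of all tested genes were) and 5 lower (4.78% of all). The median log2 change of the 39 was 0, with 19 above and 19 below, and that of all tested genes was 0.00 as well. Usp18 had 5.17 and 3.34 CPM with PAM3CSK4, against 6.24 and 8.99 CPM in Th17 cultures (log2 change -0.81 ± 0.24, adjusted p = 0.0353). Ddx60 had 1.10 and 0.813 CPM with PAM3CSK4, against 1.86 and 2.90 CPM in Th17 cultures (log2 change -1.27 ± 0.34, adjusted p = 0.0207). Both had low counts in culture, and their libraries did not overlap between the groups. Trim30a had 44.1 and 44.1 CPM with PAM3CSK4, against 55.1 and 56.0 CPM in Th17 cultures (log2 change -0.33 ± 0.09, adjusted p = 0.0225). Sp100 had 117 and 112 CPM with PAM3CSK4, against 132 and 145 CPM in Th17 cultures (log2 change -0.28 ± 0.08, adjusted p = 0.0309). Lgals9 had 72.6 and 75.4 CPM with PAM3CSK4, against 84.5 and 95.1 CPM in Th17 cultures (log2 change -0.28 ± 0.09, adjusted p = 0.042). For these 3 abundant genes the shift was small, and again the groups did not overlap.

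Leaving out single libraries ended these 5 calls. Without Th17 replicate 2, or without PAM3CSK4 replicate 4, 0 of the 39 were called lower, and without PAM3CSK4 replicate 3 only Usp18 was; in each case the lone library left in the group is assumed to vary like the others. DESeq2 called 3 of the 5, leaving out Trim30a and Lgals9. The libraries also differ in step across the list. In Th17 cultures, replicate 1 was the higher one for 11 of the 39 genes (28.2%, against 49.6% of all tested genes). With PAM3CSK4, replicate 3 was the higher one for 26 (66.7%, against 48.6%). For comparison, biglycan replicate 7 was higher for 17 of the 39 (43.6%, against 49.5%) and naive replicate 1 for 23 (59.0%, against 47.5%).

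**Figure D4:**
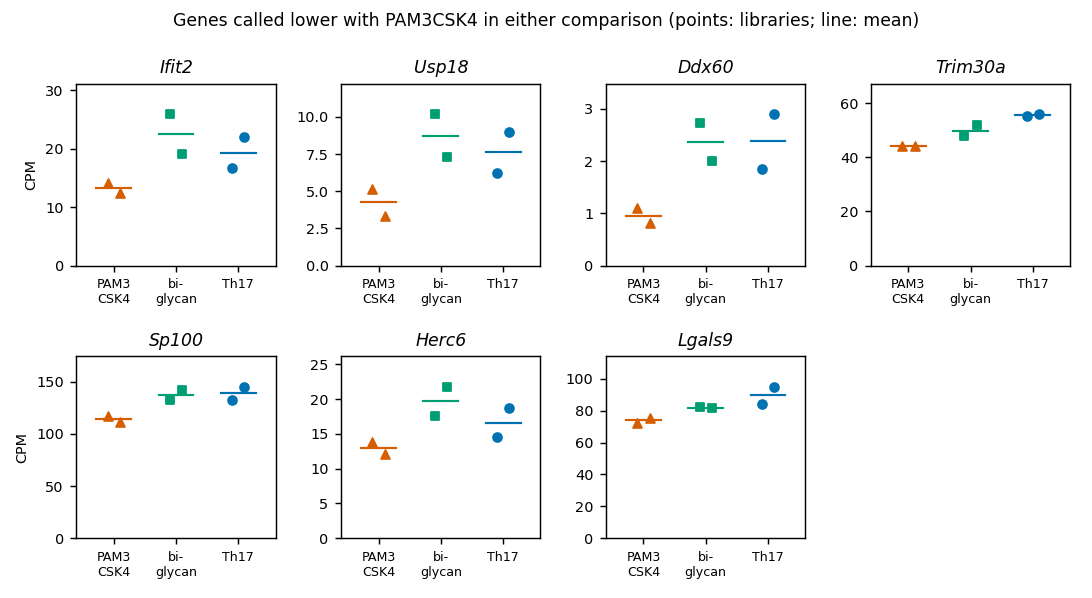
CPM of the 7 genes called lower with PAM3CSK4 against Th17 or against biglycan cultures; points are libraries and lines group means. In each panel that was called, the PAM3CSK4 points lie below those of the culture compared, by 2.41-fold for Ddx60 and 1.21-fold for Sp100 against Th17.

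Each 95% interval below holds for 1 gene alone and covers only the spread between libraries, possibly technical. The intervals are given for the 18 genes at 10 CPM or more in Th17 cultures. With PAM3CSK4 their log2 changes ran from -0.52 (Ifit2) to 0.43 (Bst2), and the 95% intervals of all 18 lay between -0.87 and 0.73. Ifit2 had 14.2 and 12.5 CPM with PAM3CSK4, against 16.7 and 21.9 CPM in Th17 cultures, and missed the threshold (adjusted p = 0.0529). Bst2 had 16.9 and 17.4 CPM with PAM3CSK4, against 11.7 and 13.7 CPM in Th17 cultures, and missed it as well (adjusted p = 0.0554). Neither pair of groups overlapped, so both genes sit just outside the calls. Genes near 0 in culture stayed there with PAM3CSK4: Rtp4 had 1 count in the 2 libraries, Oas2 had 2, Rsad2 had 3 and Ifi44 had 0.

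Around these genes, PAM3CSK4 changed parts of the pathway in both directions. None of the 10 receptor and ISGF3 genes was called. Of the 11 sensors and adaptors, 2 were called higher and 1, Irf7, lower, beside 5.21% and 4.78% of all tested genes. Ticam1, the adaptor of TLR3, had 38.3 and 47.3 CPM with PAM3CSK4, against 32.5 and 30.9 CPM in Th17 cultures (log2 change 0.43 ± 0.11, adjusted p = 0.0193). Traf3, an adaptor ubiquitin ligase, had 112 and 113 CPM with PAM3CSK4, against 93.2 and 89.4 CPM in Th17 cultures (log2 change 0.30 ± 0.09, adjusted p = 0.0319). Both calls were lost with DESeq2 (adjusted p = 0.0668 for Ticam1 and 0.0772 for Traf3), without either Th17 library and without PAM3CSK4 replicate 4, and that of Traf3 also without PAM3CSK4 replicate 3 or either biglycan library. Irf7 had 3.53 and 3.71 CPM with PAM3CSK4, against 5.99 and 6.57 CPM in Th17 cultures (log2 change -0.79 ± 0.21, adjusted p = 0.0205). Irf7 was not called without Th17 replicate 2 (adjusted p = 0.167), PAM3CSK4 replicate 3 (0.124) or PAM3CSK4 replicate 4 (0.0959). Socs1, an inhibitor of JAK kinases that interferon and other cytokines induce, had 56.0 and 75.0 CPM with PAM3CSK4, against 40.5 and 41.0 CPM in Th17 cultures (log2 change 0.68 ± 0.11, adjusted p = 0.000618). Of 10 inhibitors listed, Socs1 alone was called. Among 31 tested interferon-stimulated genes outside the 40, 5 were higher and 4 lower with PAM3CSK4, beside 5.21% and 4.78% of all tested genes. Pml, the scaffold of nuclear bodies that also hold SP100, had 81.4 and 78.3 CPM with PAM3CSK4, against 54.7 and 50.5 CPM in Th17 cultures (log2 change 0.60 ± 0.10, adjusted p = 0.000468). Pml and Sp100 thus moved in opposite directions. The calls of Socs1 and Pml remained under each of the 16 other settings tried.

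With biglycan none of the 39 genes was called. None was higher (0% of all tested genes) and none lower (0% of all) against Th17 cultures by edgeR, and DESeq2 also called 0. At an unadjusted p under 0.05 there were 2 of the 39 genes and 506 of all tested. Those 2, Ddx58 and Bst2, are named after their values were seen. Ddx58 had 58.7 and 58.9 CPM with biglycan, against 50.3 and 51.5 CPM in Th17 cultures, a log2 change of 0.21 ± 0.10. Bst2 had 14.9 and 16.6 CPM with biglycan, against 11.7 and 13.7 CPM in Th17 cultures, a log2 change of 0.31 ± 0.15. For both genes the biglycan pair lay above the Th17 pair, and the adjusted p was 1. The median log2 change of the 39 was 0.07, with 26 above and 12 below, beside 0.00 over all tested genes. Of all tested genes, 49.9% were below 0. Some of the 26 had only a few counts in culture. Among the 18 genes at 10 CPM or more, 10 were above 0 and the median was 0.04. For the 18 genes at 10 CPM or more the changes ran from -0.16 (Trim30a) to 0.31 (Bst2), and their 95% intervals lay between -0.40 and 0.62. A p above the threshold does not show equal levels, and each interval holds for 1 gene alone and covers only the spread between libraries.

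**Figure D5:**
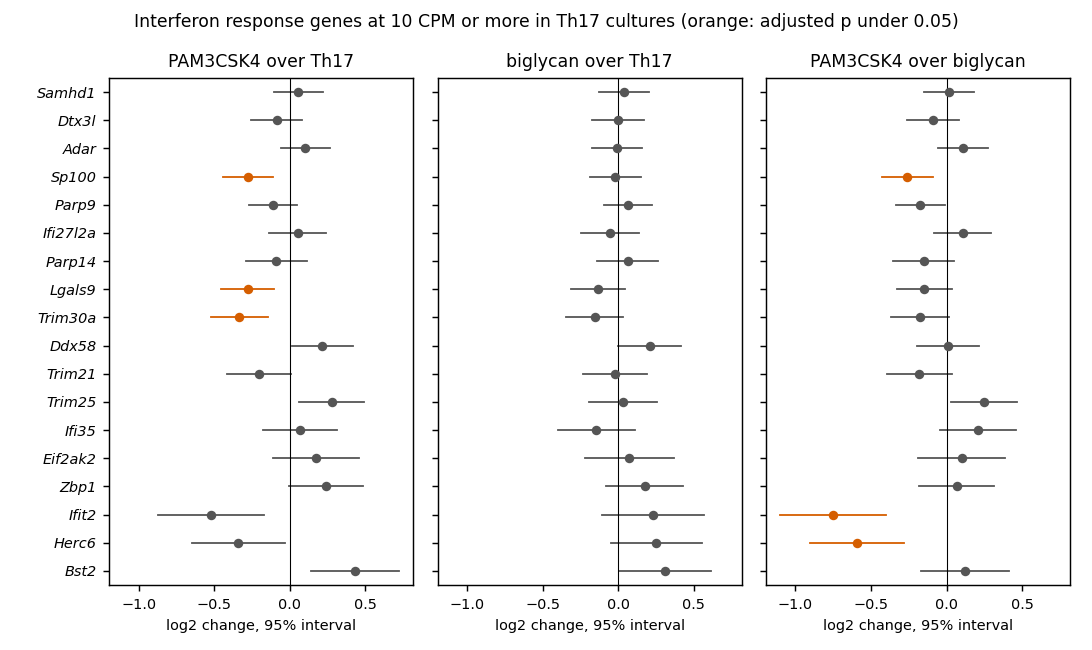
Log2 change with its 95% interval for the 18 genes at 10 CPM or more in Th17 cultures, ordered by level, in the 3 comparisons among cultures; orange marks an adjusted p under 0.05. No interval of biglycan over Th17 reaches beyond 0.62, and those with PAM3CSK4 reach -0.87 against Th17 and -1.10 against biglycan.

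Set directly against biglycan, PAM3CSK4 again gave lower calls only. Of the 39 genes, 0 were called higher (5.64% of all tested genes were) and 5 lower (5.88% of all). The libraries with PAM3CSK4 are the same as in the comparison above, so the 2 sets of calls are not independent. Ifit2 had 14.2 and 12.5 CPM with PAM3CSK4, against 25.9 and 19.1 CPM with biglycan (log2 change -0.75 ± 0.17, adjusted p = 0.00549). Herc6 had 13.9 and 12.1 CPM with PAM3CSK4, against 17.5 and 21.8 CPM with biglycan (log2 change -0.59 ± 0.15, adjusted p = 0.012). Usp18 had 5.17 and 3.34 CPM with PAM3CSK4, against 10.2 and 7.30 CPM with biglycan (log2 change -1.02 ± 0.24, adjusted p = 0.00797). In all 3 the lower biglycan library stayed above the higher PAM3CSK4 library. Ddx60 had 2.73 and 2.01 CPM with biglycan, above the PAM3CSK4 values given before (log2 change -1.29 ± 0.35, adjusted p = 0.0208). Sp100 had 132 and 142 CPM with biglycan (log2 change of PAM3CSK4 over biglycan -0.26 ± 0.08, adjusted p = 0.0418). Leaving out single libraries again ended calls: 0 of the 39 were lower without PAM3CSK4 replicate 4, 1 (Herc6) without biglycan replicate 7, and 3 without PAM3CSK4 replicate 3 or without biglycan replicate 8. DESeq2 called 4 of the 5, leaving out Sp100 (adjusted p = 0.06). The median log2 change of the 39 was -0.15, with 15 above and 23 below. Of all tested genes, 50.2% were below 0. Among the 18 genes at 10 CPM or more in Th17 cultures, 9 were above 0 and the median was -0.04.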

How the data were processed

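Poly(A) RNA of 8 libraries was sequenced after a stranded mRNA kit, per the labels' protocols. Raw counts per gene were deposited by the authors, with Bowtie2, HTSeq and the mm9 build named per the submitters' processing notes; for versions, annotation and strand setting: not given in the sources used here. Lines of the count table that name no gene were left out: reads not uniquely placed made up 73.4 to 77.1% of its total, and genes 11.7 to 13.7%. RPKM were deposited by the authors and served only to set genes beside each other per length. The percent of reads mapped to ribosomal RNA (1.43 to 3.04%) and mitochondrial RNA was used as deposited. Biglycan replicates 7 and 8 stand as numbers 5 and 6 in the tables and were linked through the library numbers.

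Counts were fitted over all 8 libraries with edgeR 4.0.16 (R 4.3.3, limma 3.58.1; TMM, filterByExpr, quasi-likelihood test, 2-sided, Benjamini-Hochberg over 11629 genes; common biological coefficient of variation 6.19%). Replicates differed by more than sampling noise (chi-square per degree of freedom 2.62 to 5.86). A gene with 0 counts in a group was bounded with a floor of 3 counts, and one with 1 to 3 counts was given a ratio with an exact 95% interval; both cover counting error only. Shared 50-base words came from GENCODE transcripts of GRCm38 and promoter windows from RefSeq GRCm38.p6, not from mm9. Alternatives were RLE, upper-quartile or no scaling factors, no filter or a filter at 10 CPM, DESeq2 1.42.0, robust estimation, fewer libraries and a replicate block.

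The genes and lists were chosen with earlier results of these data known. Each of the 40 is named with its level; fold, error and adjusted p were given at an adjusted p under 0.05, values per library for genes at least 8-fold lower in Th17 cultures or called against the majority, and promoters for up to 6 genes with the ISRE core and the smallest adjusted p.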

Additional observations from a re-analysis of the deposited data

How the results depend on the processing

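Against naive cells, 38 of the 40 genes were lower in Th17 cultures and 24 with a filter at 10 CPM, which tested 25 of them. Leaving out each library gave 38 to 39 lower and 0 to 1 higher; the call of Samhd1 needed Th17 replicate 1. For PAM3CSK4 against Th17, 3 rather than 5 were lower with DESeq2, and 2 (Bst2 and Oas3) were higher without a filter; leaving out single libraries gave 0 to 6 lower and 0 to 1 higher. For PAM3CSK4 against biglycan that range was 0 to 5 lower. Biglycan against Th17 gave 0 of the genes in every setting tried. Ifnar2, never called against naive cells, turned negative with RLE factors (-0.0042), upper-quartile factors (-0.0068), the 10 CPM filter (-0.010) and DESeq2 (-0.0034), and ran from -0.12 to 0.11 without single libraries; the cause was not tested.

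Over all genes, PAM3CSK4 against Th17 gave 1162 calls, 756 with DESeq2, 361 without Th17 replicate 2 and 387 without PAM3CSK4 replicate 4. PAM3CSK4 against biglycan gave 1340 calls, 870 with DESeq2, 2231 with only the 4 libraries compared and 360 without biglycan replicate 7. Biglycan against Th17 gave 0 calls and 29 without a filter. With the replicate number as a block, Th17 against naive cells kept 38 lower and 1 higher. The numbers were not shown to pair the samples. Over 11629 genes, the deviations of same-numbered naive and Th17 libraries from their group means had a correlation of r = 0.0276. No paired analysis was possible for the ligand comparisons because those groups share no replicate numbers with Th17. With 2 libraries per group, and cultured levels near 0 for many of the 40, changes among cultures of the lowest genes were not detectable at this depth.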

Other observations

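Other interferon-stimulated genes, 31 tested outside the 40, were also mostly lower in Th17 cultures: 24 lower and 3 higher, beside 34.4% lower and 37.8% higher of all tested genes. This list, too, was chosen with earlier results of these data known. Nlrc5, the transactivator of MHC class I genes, had 28.4 and 31.1 CPM in Th17 cultures, against 385 and 427 CPM in naive cells (log2 change -3.77 ± 0.09). Its known targets in antigen processing fell less. Tap1, a peptide transporter, had 110 and 115 CPM in Th17 cultures, against 320 and 387 CPM in naive cells (log2 change -1.66 ± 0.09). Psmb9 and Psmb8, subunits of the immunoproteasome, had log2 changes of -1.89 ± 0.12 and -0.71 ± 0.09. The immunity-related GTPases differed. Igtp had a log2 change of -2.60 ± 0.10, Iigp1 -3.42 ± 0.19, Irgm2 -1.34 ± 0.11 and Irgm1 only -0.47 ± 0.08. Ifi47, of the same family, was not called (0.10 ± 0.08, adjusted p = 0.242). The 3 higher genes were Apobec3, Ly6a and Ifitm2. Ifi47, Sp140, Trafd1 and Ube2l6 were called in neither direction. Ifitm2 was near the floor, with 6 and 9 counts in Th17 cultures, against 1 and 0 in naive cells (log2 change 3.09 ± 1.29, adjusted p = 0.0267).

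Apobec3, a cytidine deaminase that restricts retroviruses, had 178 and 206 CPM in Th17 cultures, against 82.2 and 77.1 CPM in naive cells (log2 change 1.27 ± 0.09, adjusted p = 5.51e-11). Among cultures it had 164 and 156 CPM with PAM3CSK4 and 231 and 223 CPM with biglycan (log2 change of PAM3CSK4 over biglycan -0.50 ± 0.08, adjusted p = 0.000478). Ly6a (Sca-1) had 132 and 134 CPM with PAM3CSK4, against 97.5 and 66.6 CPM in Th17 cultures (log2 change 0.69 ± 0.12, adjusted p = 0.00087). Nlrc5 was also higher with PAM3CSK4, at 42.6 and 39.2 CPM (log2 change over Th17 0.46 ± 0.10, adjusted p = 0.00414), while staying far below its naive level. That call of Nlrc5 was lost without Th17 replicate 1 (adjusted p = 0.0556) and without PAM3CSK4 replicate 3 (adjusted p = 0.0725). Of 10 inhibitors of signalling, 5 were lower and 2 higher in Th17 cultures, beside 34.4% lower and 37.8% higher of all tested genes. Tnfaip3 (A20) had 144 and 149 CPM in Th17 cultures, against 2839 and 2681 CPM in naive cells (log2 change -4.24 ± 0.09). Higher were Socs3, with 234 and 264 CPM in Th17 cultures, against 103 and 107 CPM in naive cells (log2 change 1.24 ± 0.08), and Trex1, with 32.1 and 31.3 CPM in Th17 cultures, against 19.0 and 20.0 CPM in naive cells (log2 change 0.70 ± 0.13).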
